A study of Mus musculus with 12 samples.

Results

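The 10 genes described here encode inhibitory receptors that T cells and other lymphocytes carry in chronic infection and cancer, and proteins that work with them. They were chosen by name, with earlier results of these data known. They are the receptors Lag3, Havcr2 (TIM-3), Tigit, Btla and Cd160, the transcription factor Tox, the ectoenzyme Entpd1 (CD39), and the ligands Lgals9 (galectin-9), Pvr (CD155) and Nectin2 (CD112). Each was found by its gene identifier among the 56884 genes of the count tables, and all 10 passed the low-count filter that left 17757 genes for testing. RNA came from mouse tumours of TS/A cells, a mouse mammary carcinoma line, combined with cancer-associated fibroblasts, all of wild-type genotype. The 12 libraries formed 4 groups of 3: untreated tumours (control), tumours given radiotherapy, tumours given muFAP-4-1BBL, and tumours given both. The name muFAP-4-1BBL joins FAP, the fibroblast activation protein found on activated stroma, to the ligand of the T cell costimulator 4-1BB, and the reagent is called the agonist from here on. The labels give no radiation dose, schedule, harvest time, age, sex, strain or host animal, so the libraries cannot be tied to separate mice and every p-value measures the spread between these samples.

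An inhibitory receptor dampens a T cell when a ligand on a neighbouring tumour, stromal or myeloid cell engages it. LAG-3 binds MHC class II molecules, TIM-3 binds galectin-9 and CEACAM1, TIGIT competes with the activating receptor CD226 for PVR and nectin-2, and BTLA and CD160 bind HVEM. TOX maintains the exhausted state of chronically stimulated CD8 T cells, and CD39 degrades extracellular ATP on the route to adenosine. Several of these proteins are not restricted to T cells: TIM-3 and CD39 are also found on macrophages and dendritic cells, CD39 on endothelium, TIGIT and CD160 on natural killer cells, and BTLA on B cells.

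The library totals ranged from 34076477 to 42067481 counts. Libraries of a group differed by more than counting noise (the smallest chi-square per degree of freedom between 2 of them was 17.7), so none was treated as a copy. Skeletal muscle genes set the radiotherapy group apart: 20 such genes summed to between 7716 and 17454 CPM (counts scaled to library size) in its libraries, against 259 to 975 in control, 263 to 2768 with the agonist and 817 to 1403 with the combination. Fibroblast markers summed to between 5255 and 11693 CPM over all libraries and epithelial markers to between 326 and 593 CPM, while Epcam, an epithelial adhesion molecule, averaged only 0.402 CPM (radiotherapy) to 4.23 CPM (combination). The T cell markers Cd3e, Cd4 and Cd8a were detected in every group, with means of 5.39 to 9.88, 7.83 to 21.2 and 8.62 to 22.6 CPM. In RNA from whole tumours, fewer cells of a type and less RNA per cell cannot be told apart.

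Per kilobase of exon, Lgals9 was the most abundant of the 10 genes and Tox the least. Averaged over the 12 libraries, the level was 81.7 CPM per kilobase for Lgals9, 16.0 for Havcr2, 15.1 for Entpd1, 12.6 for Pvr, 11.5 for Nectin2, 9.44 for Tigit and 8.01 for Lag3. Btla followed at 0.907, Cd160 at 0.328 and Tox at 0.213 CPM per kilobase, far below the rest. Raw counts per library ran from 14 to 64 for Cd160, 29 to 100 for Tox and 59 to 184 for Btla, so these 3 genes carry the largest counting error, while Lgals9 had 4911 to 9365 counts. The order of the middle genes depended on the treatment. In control tumours Entpd1 (12.5 CPM per kilobase) and Havcr2 (12.1) lay together just above Nectin2 (10.3) and Pvr (9.30). With radiotherapy Pvr (15.9) led these 4, and with the combination Havcr2 did (25.5), followed by Entpd1 (20.2).

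**Figure D1:**
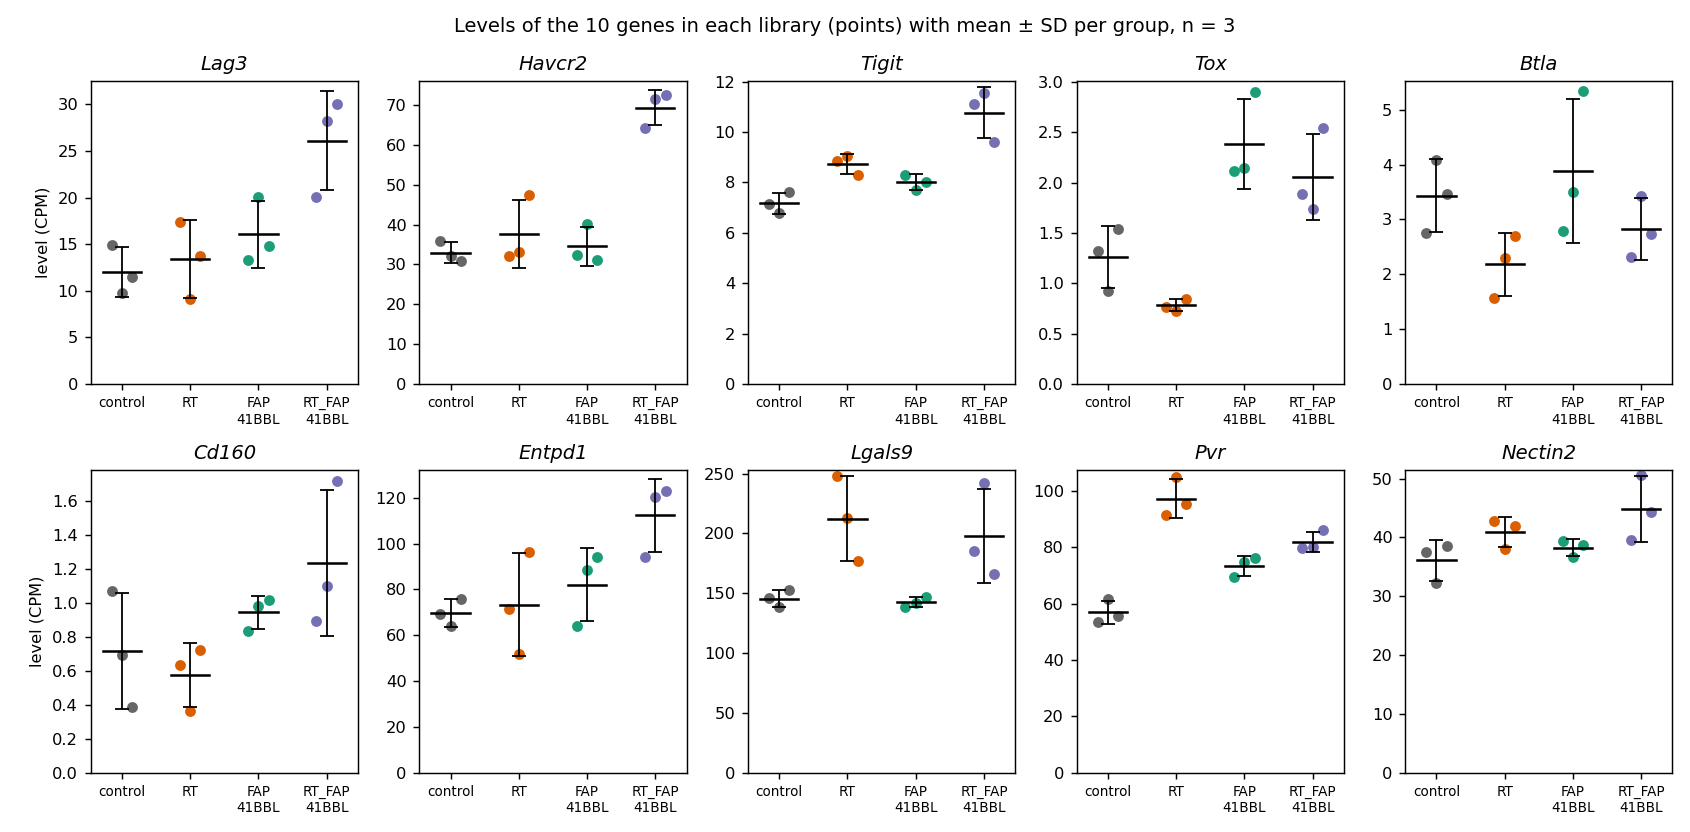
Level of each of the 10 genes in CPM (vertical axis, from 0, a separate scale per gene) in the 12 libraries, grouped by treatment (RT, radiotherapy; FAP41BBL, agonist; RT_FAP41BBL, combination); points are libraries, bars are the mean and SD, n = 3. Havcr2 lies at 64.4 to 72.5 CPM with the combination and at no more than 47.4 CPM elsewhere, Pvr is highest after radiotherapy alone, and Tox is higher in both agonist-treated groups.

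The combination gave the broadest change among these genes, with 3 of the 5 receptors and 1 ligand passing the test against control. After radiotherapy alone 2 of the 3 ligands and none of the receptors passed, and the agonist alone gave no change that passed the test. These are counts of calls, not a split between ligands and receptors. Lgals9 changed by 0.54 with radiotherapy (called) and 0.44 with the combination (not called). The receptor Tigit lay above every control library after radiotherapy, by 0.28 (adjusted p = 0.179). Changes are log2 differences from edgeR's quasi-likelihood test, with Benjamini-Hochberg adjustment over all genes tested and a threshold of 0.05. After radiotherapy, 2 of the 10 genes (Pvr and Lgals9) were higher and 0 lower, beside 9.62% of all genes in either direction, 6.57% higher and 3.05% lower. With the agonist, 0 of the 10 passed, beside 0.00563% of all genes. At an unadjusted p under 0.05 that comparison held 2 of the 10 (Tox and Pvr) and 918 of all genes. DESeq2 called 1 of the 10, Pvr, beside 48 of all genes, and limma-voom called 0, beside 1 of all genes. With the combination, 4 of the 10 (Lag3, Havcr2, Tigit and Pvr) were higher than control and 0 lower, beside 7.91% of all genes in either direction, 5.59% higher and 2.31% lower. The median change of the 10 genes was 0.17 with radiotherapy, 0.20 with the agonist and 0.64 with the combination, while that of all genes tested was 0.00, 0.01 and 0.01. These comparisons share the control libraries, so their values are given side by side only.

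Against radiotherapy alone, the combination was higher for 3 of the 10 genes (Lag3, Havcr2 and Tox) and lower for 0, beside 5.76% of all genes in either direction, 3.36% higher and 2.4% lower. Against the agonist alone it was higher for 1, Havcr2, beside 0.946% of all genes. All 6 irradiated libraries against the 6 others gave 4 genes higher (Havcr2, Tigit, Lgals9 and Pvr) and 0 lower, beside 10.1% of all genes in either direction, 6.51% higher and 3.55% lower. All 6 agonist-treated libraries against the 6 agonist-free ones gave 1 gene, Tox, beside 0.349% of all genes. The interaction asks whether the agonist's effect differed with and without radiotherapy. None of the 10 passed it in edgeR's quasi-likelihood test, where 0.152% of all genes did. At an unadjusted p under 0.05 it held 2 of the 10 (Havcr2 and Pvr) and 2497 of all genes. DESeq2 called 2 of the 10, the same genes, beside 633 of all genes. With limma-voom 0 of the 10 passed, beside 28 of all genes.

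**Figure D2:**
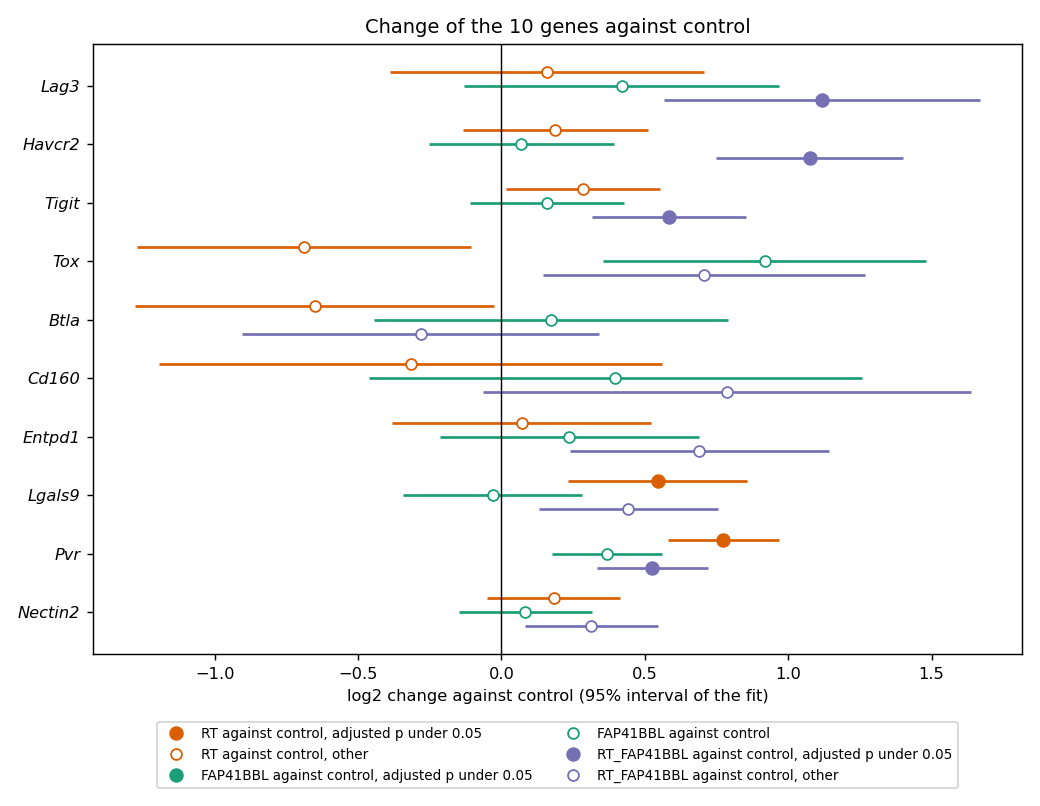
Log2 change of each gene against control (horizontal axis) for radiotherapy (RT), the agonist (FAP41BBL) and the combination (RT_FAP41BBL); points are edgeR estimates, lines their 95% intervals, and filled points have an adjusted p under 0.05. The filled points are Lgals9 and Pvr for radiotherapy and Lag3, Havcr2, Tigit and Pvr for the combination.

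Havcr2 encodes TIM-3, a receptor of T cells and myeloid cells, and lies on the plus strand at chr11:46345762-46372082 (GRCm39, as are all gene positions here). Its level was 36.0, 32.1 and 30.8 CPM in the control libraries, 32.1, 33.2 and 47.4 after radiotherapy, and 32.4, 40.2 and 31.1 with the agonist. With the combination it was 64.4, 71.5 and 72.5 CPM. All 3 combination libraries thus lay above all 9 others, and the other groups overlapped one another. The combination mean of 69.4 ± 4.41 CPM (SD, n = 3) compared with 33 ± 2.68 in control. The rise against control was 1.07 ± 0.15 on the log2 scale (adjusted p = 0.00246), a 2.11-fold level with a 95% interval of 1.68 to 2.64. Against radiotherapy alone it was 0.89 ± 0.15 (adjusted p = 0.0103) and against the agonist alone 1.01 ± 0.15 (adjusted p = 0.0188). Radiotherapy alone differed from control by 0.19 (95% interval -0.13 to 0.51) and the agonist alone by 0.07 (-0.25 to 0.39). The agonist's effect was larger with radiotherapy than without by 0.82 ± 0.21, unadjusted p = 0.00201 and adjusted p = 0.118.

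The Havcr2 call against control was kept with any of the 6 compared libraries left out. That against radiotherapy was lost without combination replicate 3 (adjusted p = 0.0613). That against the agonist was lost without agonist replicate 1 (0.134), agonist replicate 3 (0.065) or combination replicate 2 (0.0912). Radiotherapy replicate 3, at 47.4 CPM, was the highest library outside the combination. Without it the interaction of Havcr2 was 1.02 with an adjusted p of 0.0219, and with DESeq2 on all libraries it was 0.82 with an adjusted p of 0.020. It did not pass in the other 11 fits that left out a library (adjusted p up to 0.298), nor with the T cell score (0.427) or the macrophage score (0.689) of each library in the model.

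Among 11 listed partners and relatives of TIM-3, 1 passed the test after radiotherapy, 1 with the combination against control and 2 with the combination against radiotherapy, all higher. The share of all genes called was 9.62%, 7.91% and 5.76% in these comparisons, against which the counts of this and the other related lists are to be read, and the single genes called after radiotherapy and against control are near those shares. Lgals8, a galectin of damaged endosomes, rose by 0.39 ± 0.09 after radiotherapy (adjusted p = 0.0203) and by 0.33 ± 0.09 with the combination (0.0496). Lck, the kinase that starts T cell receptor signalling, was higher with the combination than after radiotherapy by 0.82 ± 0.21 (0.0408). Timd4, a phosphatidylserine receptor of macrophages in the TIM family, was higher there by 1.01 ± 0.27 (0.0495). Ceacam1, a TIM-3 ligand, averaged 3.99 ± 0.165 CPM in control and 7.24 ± 0.442 with the combination (SD, n = 3), and passed in none of the comparisons.

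Lag3 encodes LAG-3, a CD4-related receptor of activated T cells, at chr6:124881320-124888670 on the minus strand. Its level was 14.9, 9.70 and 11.4 CPM in control, 17.4, 9.12 and 13.7 after radiotherapy, 13.3, 20.1 and 14.8 with the agonist, and 20.0, 28.2 and 30.0 with the combination. The combination libraries lay above every control and radiotherapy library, but combination replicate 1 (20.0) and agonist replicate 2 (20.1) met. The mean was 26.1 ± 5.31 CPM with the combination and 12 ± 2.65 in control (SD, n = 3). Lag3 rose by 1.12 ± 0.25 against control (adjusted p = 0.0211), a 2.17-fold level with a 95% interval of 1.48 to 3.18. Against radiotherapy alone it rose by 0.96 ± 0.25 (adjusted p = 0.0467), and against the agonist alone the difference was 0.70 ± 0.25 (adjusted p = 0.227). Both calls were near the threshold. That against control was lost without control replicate 2 (0.101), control replicate 3 (0.0733), combination replicate 2 (0.0802) or combination replicate 3 (0.0832). That against radiotherapy was lost without any of 5 of the 6 libraries, with adjusted p-values from 0.0511 without combination replicate 1 to 0.177 without combination replicate 3, and was kept without radiotherapy replicate 1 (0.0468). It was also lost without the low-count filter (0.0776) and with only the 2 compared groups in the fit (0.0673).

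The MHC class II genes, whose products are the main ligands of LAG-3, varied widely between libraries. Reads of these polymorphic genes can depend on the mouse strain. Of 9 tested genes in the list of LAG-3 ligands and MHC class II, 0 passed against control with radiotherapy (edgeR quasi-likelihood test), with a median difference of -1.32, or with the combination, with a median of 0.35. Between the combination and radiotherapy the median was 1.68 and 1 gene passed, H2-DMb1, a subunit of the peptide-loading chaperone, which was higher by 1.72 ± 0.41 (adjusted p = 0.0399). H2-Ab1, a chain of the class II molecule itself, averaged 728 ± 146 CPM in control, 272 ± 158 after radiotherapy, 678 ± 38.5 with the agonist and 973 ± 422 with the combination (SD, n = 3). Its difference between the combination and radiotherapy was 1.84 (adjusted p = 0.0596).

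Tigit, a receptor of T cells and natural killer cells, lies at chr16:43469230-43484509 on the minus strand and varied least of the 5 receptor genes, 1.71-fold from the lowest to the highest library. Its level was 7.16, 6.77 and 7.61 CPM in control, 8.86, 9.05 and 8.30 after radiotherapy, 8.31, 7.69 and 8.03 with the agonist, and 11.1, 11.5 and 9.62 with the combination. Control was lowest and the combination highest, each without overlap with any other group. Tigit rose by 0.59 ± 0.12 with the combination against control (adjusted p = 0.0145), a 1.5-fold level with a 95% interval of 1.25 to 1.81. The irradiated libraries were higher than the others by 0.35 ± 0.09 (adjusted p = 0.0244). The differences of 0.28 after radiotherapy alone (adjusted p = 0.179) and 0.16 with the agonist alone (0.999) did not pass. The call for the combination was lost without control replicate 2 (0.0967) or combination replicate 2 (0.0787). That for the irradiated libraries was lost without control replicate 1 (0.0513), control replicate 2 (0.0927), agonist replicate 2 (0.0571), combination replicate 1 (0.0595) or combination replicate 2 (0.081), and without the low-count filter (0.091).

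Around TIGIT, 10 other genes of the PVR and nectin system were followed. After radiotherapy 0 were higher and 1 lower, beside 6.57% and 3.05% of all genes. With the combination 3 were higher and 1 lower than control, beside 5.59% and 2.31%. The gene that fell was Crtam, an adhesion receptor of activated lymphocytes that binds a nectin-like protein, by 1.02 after radiotherapy (adjusted p = 0.0125) and by 0.90 with the combination (0.0263). With the combination, Nectin4, another nectin, rose by 0.84 ± 0.18 (0.0162). Inpp5d and Grb2, whose products SHIP-1 and GRB2 relay TIGIT's signal, rose by 0.63 ± 0.16 (0.0325) and 0.40 ± 0.09 (0.0230). Against radiotherapy 3 genes were higher with the combination, beside 3.36% of all genes. They were Pvrig, an inhibitory receptor for nectin-2, by 1.25 ± 0.27 (0.0232), Nectin4 by 0.84 ± 0.18 (0.0232) and Inpp5d by 0.70 ± 0.16 (0.0278). Cd226, the activating competitor of TIGIT, averaged 4.13 ± 0.919 CPM in control and 5.21 ± 0.259 with the combination (SD, n = 3) and passed in no comparison.

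Btla and Cd160, the receptors that bind HVEM, passed in no comparison. Btla (chr16:45044678-45078033, plus strand) measured 2.75, 4.09 and 3.46 CPM in control, 1.56, 2.30 and 2.69 after radiotherapy, 2.79, 3.50 and 5.34 with the agonist, and 2.32, 3.43 and 2.73 with the combination. The radiotherapy libraries lay below all control libraries, by 0.65 (95% interval -1.28 to -0.02, adjusted p = 0.188), and the combination overlapped both. Btla was thus the only receptor of the 5 whose mean was lower than control in both irradiated groups. Cd160 (chr3:96706079-96736667, minus strand) measured 1.07, 0.695 and 0.384 CPM in control, 0.634, 0.364 and 0.723 after radiotherapy, 0.831, 0.984 and 1.02 with the agonist, and 0.892, 1.10 and 1.72 with the combination. The combination lay above radiotherapy without overlap, by 1.10 with a 95% interval of 0.24 to 1.96 (adjusted p = 0.118). It overlapped control, the difference being 0.79 (-0.06 to 1.64). Of the 7 other genes of the HVEM system, 0 passed after radiotherapy. With the combination Ptpn6 and Ltb rose against control, beside 5.59% of all genes. Ptpn6, the phosphatase SHP-1 that inhibitory receptors recruit, rose by 1.01 ± 0.18 (adjusted p = 0.00706), and Ltb, lymphotoxin beta, by 0.95 ± 0.23 (0.0257). Tnfrsf14, which encodes HVEM, averaged 21.1 ± 5.12 CPM in control and 32.9 ± 5.01 with the combination (SD, n = 3), a difference of 0.64 with an adjusted p of 0.179.

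Tox separated the agonist-treated from the agonist-free libraries. The gene lies at chr4:6686353-6991557 on the minus strand, and its level was 1.32, 0.927 and 1.54 CPM in control, 0.767, 0.728 and 0.848 after radiotherapy, 2.11, 2.14 and 2.90 with the agonist, and 1.89, 1.74 and 2.55 with the combination. Each of the 6 agonist-treated libraries lay above each of the 6 agonist-free ones, and the radiotherapy group was lowest without overlap. Relative to 100 CPM of summed T cell markers, Tox measured 0.947 to 1.2 CPM in control, 0.733 to 1.21 after radiotherapy, 1.34 to 1.78 with the agonist and 0.869 to 1.27 with the combination. On that scale the agonist alone stood apart and the combination overlapped both agonist-free groups. The agonist-treated libraries were higher by 1.16 ± 0.19 (adjusted p = 0.0414), a 2.23-fold level with a 95% interval of 1.69 to 2.95, at a depth of 29 to 100 counts per library. The combination rose against radiotherapy by 1.39 ± 0.27 (adjusted p = 0.0141). Against control, the agonist alone differed by 0.92 ± 0.26 (adjusted p = 0.684), the combination by 0.71 ± 0.26 (0.119) and radiotherapy by -0.69 ± 0.27 (0.132). The call over all 12 libraries was lost in 9 of the 12 fits that left out 1 library, with adjusted p-values from 0.0643 without control replicate 3 to 0.126 without combination replicate 3. It was kept without radiotherapy replicate 3 (0.0102), agonist replicate 3 (0.0307) or combination replicate 2 (0.0492). With the T cell score of each library in the model, the agonist-treated libraries differed by 0.80 ± 0.30 for Tox and did not pass, in a fit that called 0 of all genes. The call against radiotherapy was lost without radiotherapy replicate 2 (0.0605) or combination replicate 3 (0.0854).

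Tox was followed beside 26 other genes of the exhaustion programme, among them Pdcd1 (PD-1), Ctla4 and the early-response Nr4a factors. After radiotherapy 3 of the 26 rose and 0 fell, beside 6.57% of all genes higher and 3.05% lower. The 3 were Nr4a1 by 0.88 ± 0.12 (adjusted p = 0.0015), Nr4a3 by 1.06 ± 0.26 (0.0241) and Eomes, a T-box factor of effector and exhausted cells, by 0.89 ± 0.25 (0.0450). Eomes is also among the natural killer cell markers used below. With the combination 3 rose and 0 fell, beside 5.59% of all genes higher and 2.31% lower. These were Nr4a1 by 0.69 ± 0.12 (0.00583), Eomes by 1.2 ± 0.25 (0.0147) and Batf, an AP-1 family factor, by 1.19 ± 0.21 (0.00628). Between the combination and radiotherapy 4 were higher and 1 lower, beside 3.36% and 2.4% of all genes. The higher genes were Batf by 0.95 ± 0.21 (0.0232), Cd244a, an inhibitory receptor of the SLAM family, by 1.53 ± 0.29 (0.0155), Prdm1, the factor BLIMP-1, by 0.80 ± 0.17 (0.0204) and the chemokine receptor Cxcr6 by 0.94 ± 0.24 (0.0408). The lower gene was Bhlhe40, a transcription factor, which fell by 0.69 (0.0432) and was named after its values were seen.

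Over all irradiated libraries 2 of these 26 were higher and 2 lower, beside 6.51% and 3.55% of all genes. The lower genes were Tcf7, which encodes the TCF-1 of precursor exhausted and naive T cells, by 0.55 (adjusted p = 0.0211) and Ikzf2, the factor HELIOS, by 0.32 (0.0171). Pdcd1 averaged 6.26 ± 1.24 CPM in control, 4.96 ± 1.93 after radiotherapy, 7.69 ± 1.2 with the agonist and 8.89 ± 2.02 with the combination (SD, n = 3). Ctla4 averaged 3.68 ± 0.907, 3.47 ± 0.759, 4.22 ± 0.141 and 5.51 ± 1.5 CPM in the same order. Neither gene passed in any comparison.

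Entpd1 encodes CD39, an enzyme of regulatory and exhausted T cells, macrophages and endothelium, at chr19:40600810-40730046 on the plus strand. Its gene overlaps 3 annotated genes of the same strand, so some reads could have been left out as ambiguous. The level was 69.3, 64.0 and 75.9 CPM in control, 71.5, 51.6 and 96.5 after radiotherapy, 64.2, 88.3 and 94.0 with the agonist, and 94.1, 120.3 and 123 with the combination. The combination lay above control and above the agonist without overlap, but radiotherapy replicate 3 (96.5) passed combination replicate 1 (94.1). The difference from control was 0.69 ± 0.21 (95% interval 0.24 to 1.14) and missed the threshold with an adjusted p of 0.0637. The call depended on the fit: the adjusted p was 0.0168 in DESeq2, 0.067 in limma-voom and 0.00481 when only the control and combination libraries were fitted. Of 16 other genes of extracellular nucleotide and adenosine metabolism, 1 rose after radiotherapy, beside 6.57% of all genes. It was P2ry2, a receptor for ATP and UTP, by 0.66 ± 0.19 (0.0439). With the combination 2 rose, beside 5.59% of all genes: P2rx4, an ATP-gated channel, by 0.93 ± 0.14 (0.00324), and Ada, adenosine deaminase, by 0.78 ± 0.19 (0.0244). P2rx7, another ATP-gated channel, was higher with the combination than after radiotherapy by 0.70 ± 0.13 (0.0112). Nt5e, the CD73 enzyme that completes the step from AMP to adenosine, averaged 49.9 ± 13.8 CPM in control and 45.7 ± 2.72 with the combination (SD, n = 3), and passed in no comparison.

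Lgals9, the ligand galectin-9, was higher in every irradiated library, with and without the agonist. It lies at chr11:78853800-78875772 on the minus strand. Its level was 146, 138 and 152 CPM in control and 139, 142 and 147 with the agonist, against 248, 213 and 177 after radiotherapy and 185, 242 and 166 with the combination. All 6 irradiated libraries lay above the 6 others, while the irradiated groups overlapped each other and spread more widely (SD of 35.4 and 39.7 CPM, against 6.94 and 4.00). The irradiated libraries were higher by 0.51 ± 0.10 (adjusted p = 0.00905), a 1.42-fold level with a 95% interval of 1.22 to 1.66, and this call was kept with any of the 12 libraries left out. Radiotherapy alone rose by 0.54 ± 0.14 (adjusted p = 0.0331). That call was lost without any of 5 of the 6 libraries (adjusted p from 0.0738 without control replicate 3 to 0.131 without control replicate 2) and was kept without radiotherapy replicate 3 (0.021). The combination's difference from control was 0.44 ± 0.14 (adjusted p = 0.0808). Between the combination and radiotherapy alone the difference was -0.10 (95% interval -0.41 to 0.21). Relative to 100 CPM of summed macrophage and monocyte markers, Lgals9 measured 2.48 to 2.88 CPM in control and 2.72 to 5.49 after radiotherapy. It measured 2.18 to 2.53 with the agonist and 1.73 to 2.67 with the combination. On that scale the combination overlapped control and lay below radiotherapy.

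Galectin-9 is a known interferon-inducible protein, so the 250 bases before the gene's start were read for the core of the interferon-stimulated response element (ISRE), GAAANNGAA or its complement TTCNNTTTC. RefSeq promoters (GRCm38.p6) were at hand for 7 of the 10 genes. Of these, Lgals9 and Btla hold that core once each, on either strand, as do 7.13% of 32851 promoters of this length. They are printed because both hold the core, while after radiotherapy Lgals9 rose and Btla differed by -0.65 without passing the test. Nectin2, a ligand whose promoter lacks the core, stands beside them. Capitals mark the core, and each line ends at the base before the start (Lgals9 at chr11:78984925-78985174, minus strand; Btla at chr16:45224087-45224336, plus strand; Nectin2 at chr7:19749574-19749823, minus strand).
Lgals9: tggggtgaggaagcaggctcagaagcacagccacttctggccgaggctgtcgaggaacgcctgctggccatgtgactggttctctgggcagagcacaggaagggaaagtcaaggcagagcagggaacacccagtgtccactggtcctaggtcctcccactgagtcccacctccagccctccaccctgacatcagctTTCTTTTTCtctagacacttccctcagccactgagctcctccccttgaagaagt
Btla: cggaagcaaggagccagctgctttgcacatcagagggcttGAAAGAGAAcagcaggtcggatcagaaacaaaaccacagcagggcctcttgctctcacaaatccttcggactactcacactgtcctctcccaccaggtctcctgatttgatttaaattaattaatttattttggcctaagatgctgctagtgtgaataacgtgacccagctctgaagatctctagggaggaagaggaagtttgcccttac
Nectin2: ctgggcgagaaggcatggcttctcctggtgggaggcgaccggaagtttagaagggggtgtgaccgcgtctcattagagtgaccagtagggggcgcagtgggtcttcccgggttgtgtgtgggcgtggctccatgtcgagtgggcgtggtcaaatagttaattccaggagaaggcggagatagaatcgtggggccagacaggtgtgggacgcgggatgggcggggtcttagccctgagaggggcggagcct
The core lies at bases -54 to -46 in Lgals9 and at -210 to -202 in Btla, counted from the start. Neither match is a measured binding site. Over the same libraries, 20 genes of the type I interferon response summed to between 2053 and 2497 CPM in control and 2462 and 3265 with the agonist, against 4732 to 5394 after radiotherapy and 4279 to 7209 with the combination. Of the 20, 19 passed the test as higher after radiotherapy, beside 6.57% of all genes. The part of these 20 genes in the level of Lgals9 was not tested.

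**Figure D3:**
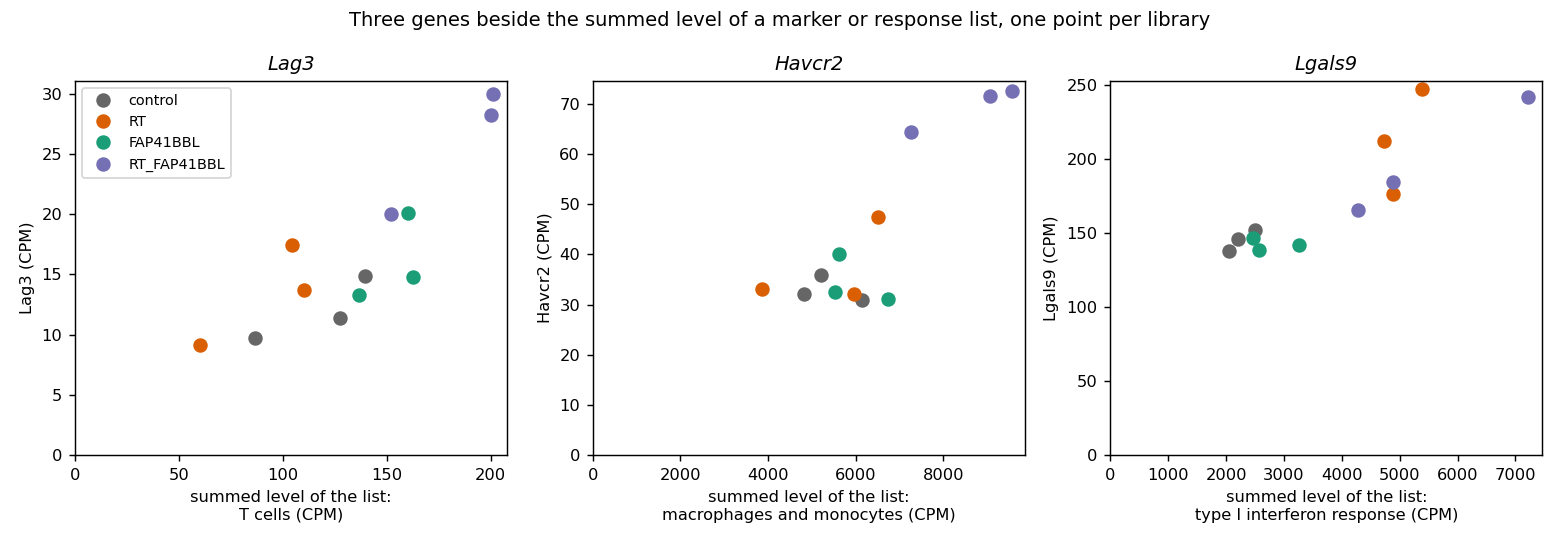
Level of Lag3, Havcr2 and Lgals9 in CPM (vertical axes, from 0) against the summed CPM of T cell markers, macrophage and monocyte markers and type I interferon response genes (horizontal axes, from 0); each point is 1 of the 12 libraries, coloured by group. The 3 combination libraries lie above and to the right of all others in the panel of Havcr2, combination replicate 1 (20.0 CPM) lies level with agonist replicate 2 (20.1 CPM) in the panel of Lag3, and the 6 irradiated libraries lie to the right of the 6 others in the panel of Lgals9.

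Pvr, the main ligand of TIGIT, had the smallest adjusted p of the 10 genes after radiotherapy. Its gene is at chr7:19637503-19655085 on the minus strand. The level was 53.6, 61.5 and 55.7 CPM in control, 91.5, 105 and 95.5 after radiotherapy, 69.5, 74.7 and 76.2 with the agonist, and 79.7, 80.0 and 86.1 with the combination. The 4 groups did not overlap at all, in the order control, agonist, combination, radiotherapy, with means of 56.9 ± 4.10, 73.5 ± 3.49, 82.0 ± 3.59 and 97.3 ± 6.92 CPM (SD, n = 3). Pvr rose by 0.77 ± 0.09 after radiotherapy (adjusted p = 0.000797), a 1.71-fold level with a 95% interval of 1.5 to 1.95. It rose by 0.53 ± 0.09 with the combination (adjusted p = 0.00546), and both calls were kept with any compared library left out. In the irradiated against the other libraries it rose by 0.47 ± 0.06 (adjusted p = 0.00121).

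The agonist went with a higher level of Pvr without radiotherapy and a lower level with it. Alone it differed from control by 0.37 ± 0.09 (adjusted p = 0.532), and added to radiotherapy by -0.25 ± 0.09 (adjusted p = 0.116). The interaction was -0.62 ± 0.13, with an unadjusted p of 0.000312 and an adjusted p of 0.072. The adjusted p of the Pvr interaction was 0.000375 in DESeq2 and 0.0797 in limma-voom, and it fell under the threshold without radiotherapy replicate 3 (-0.63, adjusted p = 0.0408). Without any other single library the Pvr interaction did not pass (adjusted p up to 0.208 over 11 fits), nor with the T cell score (0.239) or the macrophage score (0.326) in the model.

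Nectin2, which shares the receptor TIGIT with Pvr, passed in no comparison. The gene lies near Pvr on the same strand, at chr7:19450569-19484408. Its level was 37.5, 32.2 and 38.6 CPM in control, 42.8, 38.0 and 42 after radiotherapy, 39.4, 36.6 and 38.7 with the agonist, and 39.5, 50.6 and 44.4 with the combination. The combination lay just above control without overlap, by 0.31 ± 0.11 (95% interval 0.08 to 0.55, adjusted p = 0.0958). The other groups overlapped control. After radiotherapy Nectin2 differed by 0.18 (95% interval -0.05 to 0.41), an interval that lies below that of Pvr (0.58 to 0.97).

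The summed markers of T cells, macrophages and natural killer cells were also high with the combination. The summed level of 19 T cell markers was 86.6 to 139 CPM in control, 60.3 to 110 after radiotherapy, 137 to 163 with the agonist and 152 to 201 with the combination. The 16 macrophage and monocyte markers summed to between 4809 and 6150, 3870 and 6501, 5519 and 6741, and 7262 and 9573 CPM in the same order, and natural killer cell markers to between 58.7 and 86.8, 87.6 and 131, 87.0 and 139, and 154 and 225 CPM. The combination libraries thus lay above all control and radiotherapy libraries in all 3 sums. Dendritic cell markers summed to between 147 and 163, 81.2 and 179, 172 and 242, and 321 and 371 CPM in that order, highest with the combination. Neutrophil markers summed to between 30.6 and 34.2, 35.6 and 76.4, 36.3 and 53.5, and 75.6 and 96.1 CPM. Against control the combination called 4 of the 19 T cell markers, 8 of the 16 macrophage markers and 5 of the 9 natural killer markers tested. It called 1 of the 11 dendritic cell markers and 3 of the 7 neutrophil markers tested. All were higher, beside 5.59% of all genes. Adgre1, the macrophage antigen F4/80, rose by 1.33 ± 0.20 (adjusted p = 0.00393).

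Relative to 100 CPM of summed T cell markers, Lag3 measured 8.95 to 11.2 CPM in control, 9.10 to 12.5 with the agonist, 12.4 to 16.7 after radiotherapy and 13.2 to 14.9 with the combination. On that scale both irradiated groups lay above control and overlapped each other. Tigit per 100 CPM of T cell markers was 5.14 to 7.82 in control, 7.55 to 15 after radiotherapy, 4.80 to 6.08 with the agonist and 4.79 to 7.33 with the combination. The combination was thus not above control on that scale, with means of 5.96 and 6.30. Havcr2 per 100 CPM of macrophage markers was 0.501 to 0.690 in control, 0.537 to 0.858 after radiotherapy, 0.462 to 0.716 with the agonist and 0.757 to 0.886 with the combination. The combination lay above control and the agonist there, and overlapped radiotherapy. Per 100 CPM of T cell markers, Havcr2 was 24.2 to 37.0 in control, 30.7 to 55.1 after radiotherapy, 19.1 to 25.1 with the agonist and 35.7 to 42.4 with the combination. On that scale the combination overlapped control and radiotherapy, with means of 38.0, 29.0 and 42.9. Entpd1 per 100 CPM of macrophage markers was nearly level, with group means of 1.30, 1.34, 1.38 and 1.30 for control, radiotherapy, agonist and combination. Per 100 CPM of endothelial markers its group means were 20.6, 18.5, 21.4 and 22.0 in the same order, and the groups overlapped.

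The model was also fitted with a marker score of each library, the mean log2 CPM of a list, as a covariate. With the T cell score, the combination against control gave 0.51 ± 0.22 for Lag3 (adjusted p = 0.453), 0.88 ± 0.19 for Havcr2 (0.0907), 0.61 ± 0.16 for Tigit (0.184) and 0.62 ± 0.11 for Pvr (0.0740). The estimates of Tigit and Pvr were no smaller than without the score, and those of Lag3 and Havcr2 were lower. None of the 4 passed, in a fit that called 10 of all genes against 1404 without the score. Against radiotherapy the same fit gave 0.03 ± 0.27 for Lag3, 0.59 ± 0.23 for Havcr2 and 0.88 ± 0.43 for Tox. With the macrophage score the combination differed from control by 0.34 ± 0.40 for Lag3, 0.70 ± 0.23 for Havcr2, 0.68 ± 0.21 for Tigit, 0.61 ± 0.15 for Pvr and -0.26 ± 0.17 for Entpd1, and that fit called 0 of all genes. The score and the treatment move together in these libraries, so the parts of cell number and of level per cell cannot be told apart.

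With the skeletal muscle score, the radiotherapy estimates hardly moved while their errors grew. Radiotherapy against control was 0.75 ± 0.16 for Pvr (adjusted p = 0.115) and 0.59 ± 0.26 for Lgals9 (0.409), in a fit that called 3 of all genes against 1709 without the score. The combination against control kept its 4 calls there, with 1.18 ± 0.27 for Lag3 (0.0311), 1.08 ± 0.17 for Havcr2 (0.00591), 0.59 ± 0.15 for Tigit (0.0373) and 0.52 ± 0.10 for Pvr (0.0158). Against radiotherapy the combination kept 0 of its 3 calls, where 1 of all genes was called against 1022 without the score. The irradiated libraries kept 0 of their 4 calls, and the agonist-treated libraries lost the call of Tox.

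**Figure D4:**
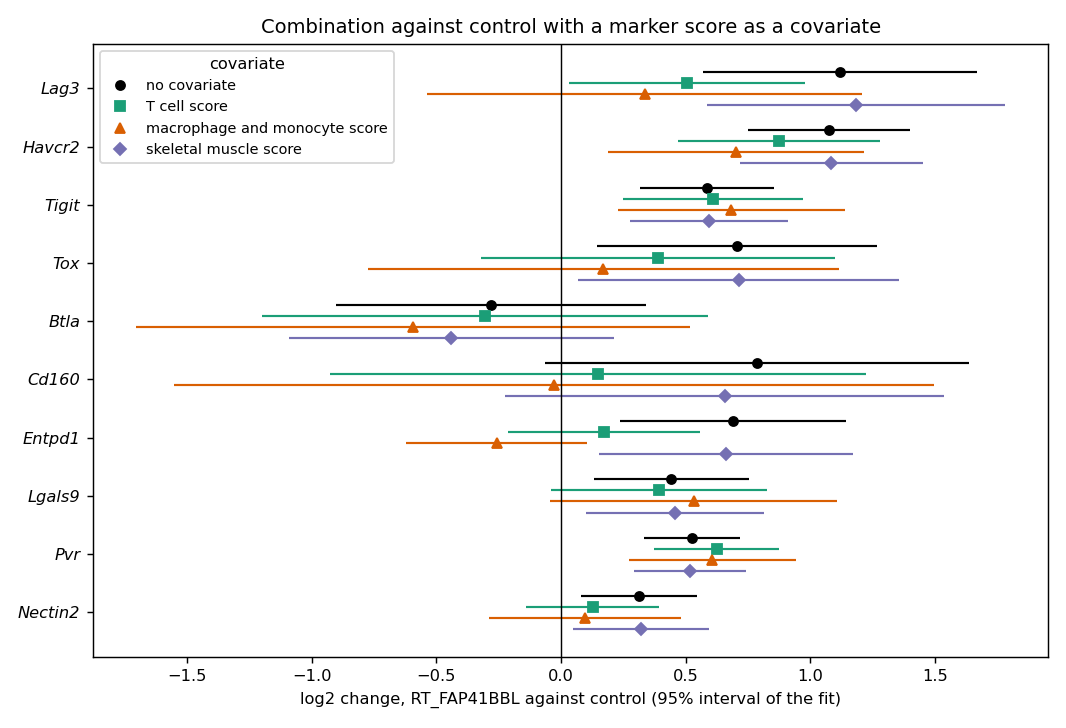
Log2 change of the 10 genes with the combination against control (horizontal axis) without a covariate and with the T cell, macrophage or skeletal muscle score of each library in the model; points are edgeR estimates and lines their 95% intervals. The estimates of Lag3, Havcr2, Cd160 and Entpd1 are lower with the T cell and macrophage scores, and those of Tigit and Pvr are not. With the T cell score, those of Tox and Nectin2 are lower too, and those of Lgals9 (0.39 against 0.44) and Btla (-0.31 against -0.28) slightly so.

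Over the 12 libraries, the log2 CPM of Lag3 and Entpd1 was the most alike of any 2 of the 10 genes (Pearson r = 0.85), followed by Lag3 and Havcr2 (0.81). Lgals9 and Btla were the most opposite (-0.60). These values describe libraries that share their treatment groups and carry no test. Among 11819 expressed genes, the 3 most like Lag3 were Cd48 (0.972), Tmsb4x (0.970) and Adap1 (0.961), and Tex14 (0.984) and Ms4a6c (0.977) were among the 3 most like Havcr2. Entpd1 was most like Rftn1 (0.981), Prkch (0.980) and Tbc1d9 (0.978). Tox stood nearest to Trac (0.899), the constant chain of the T cell receptor, then Olfm1 (0.895) and Pla2g2d (0.892). Lgals9 stood nearest to Ube2l6 (0.967), Ifi35 (0.963) and Isg15 (0.958), which are interferon-stimulated genes. Pvr stood nearest to Eaf1 (0.978), Ptgs2 (0.962), which encodes cyclooxygenase COX-2, and Dusp5 (0.948), a phosphatase of ERK.

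**Figure D5:**
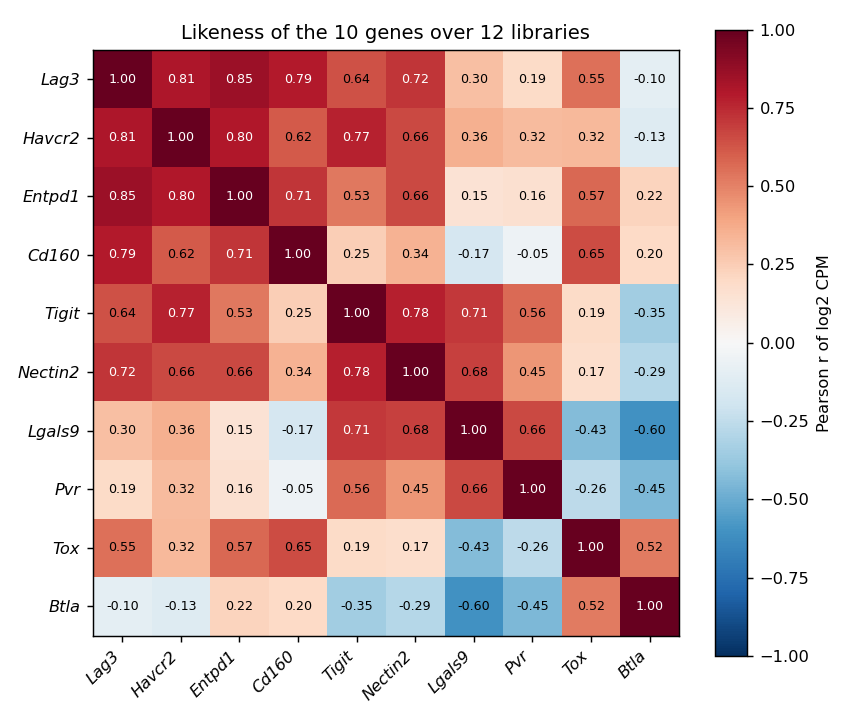
Pearson r of log2 CPM between each pair of the 10 genes over the 12 libraries (colour scale from -1 to 1, value in each cell). Lag3, Havcr2, Entpd1 and Cd160 form the reddest block (0.62 to 0.85), and Btla is negative with Lgals9 (-0.60) and Pvr (-0.45).

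Tigit stood nearest to Fcrlb (0.918), the chemokine Ccl5 (0.908) and Rasgef1b (0.903), and Nectin2 to Ctsz (0.925), Rmi2 (0.917) and Epsti1 (0.910). For the 2 receptors with few counts, Btla was nearest to Itgae (0.931), which encodes CD103, and Cd160 to Ercc8 (0.887).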

How the data were processed

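Each library's table holds raw fragment counts, which the authors made with featureCounts 1.6.0 over exons of GENCODE M33 on GRCm39, with read pairs counted on the reverse strand, per the file headers. Libraries were stranded and made from polyadenylated RNA, per the labels' protocols. The submitters' processing notes also list STAR 2.7.9a and FastQC 0.11.8, with edgeR and limma. Strand-aware counting kept antisense neighbours apart.

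Symbols, matched by gene identifier, were found for 51948 of 56884 genes (91.3%), at least 99.041% of each library's counts. The counts entered edgeR 4.0.16 in R 4.3.3. Of these genes filterByExpr kept 17757, TMM scaled the libraries (CPM are on this scale), and all 12 libraries shared 1 model of the 4 groups (8 residual degrees of freedom, biological coefficient of variation 0.205). The test was the robust quasi-likelihood F test, adjusted after Benjamini-Hochberg over all genes tested at 0.05. Adjusted p-values come from it wherever no other tool is given. Errors after ± are standard errors unless marked SD, and intervals are 95%. Log2 CPM for scores and correlations used a prior count of 2. Only the edgeR test of radiotherapy against control was also run on simulated counts with known changes.

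The 10 genes, the lists of related genes and the marker lists were chosen with earlier results of these data known. Besides the 10 genes, the text names up to 4 genes past the threshold per related list and comparison, Pdcd1, Ctla4, Tnfrsf14, Cd226, Nt5e, Ceacam1, H2-Ab1 and Tcf7, a few defining markers, and the 3 nearest genes of each by Pearson r among genes whose mean log2 CPM was 1 or more. A gene that this rule selects is not reported here. The alternatives were scaling by RLE factors or by library totals, testing without the low-count filter, DESeq2 1.42.0, limma-voom (limma 3.58.1), a block on the replicate number, a fit of the compared groups alone, a marker score as covariate, and leaving out each library in turn.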

Additional observations from a re-analysis of the deposited data

Results flagged for a closer look

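Pvr was set apart because the agonist's difference had opposite signs in the absence and presence of radiotherapy, in every library: all 3 agonist libraries lay above all 3 control libraries, and all 3 combination libraries below all 3 radiotherapy libraries. The interaction was -0.62 ± 0.13 on the log2 scale (unadjusted p = 0.000312, edgeR adjusted p = 0.072), so the difference did not pass the test over all genes. The adjusted p of Pvr ranged from 0.0716 with RLE size factors to 0.0907 with library totals among the scaling choices.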

How the results depend on the processing

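Over 1430 alternative estimates of the 10 genes' changes, 1287 kept direction and side of the threshold, 73 lost a call, 21 gained a call and 49 changed sign, none of the last in a called result. RLE factors, library totals and limma-voom changed no call. The number of the 10 genes past the threshold was moved by other choices. DESeq2 called 1 with the agonist, 6 for the combination against control (Entpd1 and Lgals9 added), 5 for the combination against radiotherapy (Entpd1 and, lower, Pvr added), 3 for the combination against the agonist (Tigit and Lgals9 added), 3 for agonist-treated libraries (Lag3 and Havcr2 added) and 2 for the interaction. It also called more of all genes than the main edgeR fit, in the same order 48, 2341, 2063, 774, 894 and 633. The main fit called 1, 1404, 1022, 168, 62 and 27 of all genes. Without the low-count filter 2 passed for agonist-treated libraries (Havcr2 added), 2 for the combination against radiotherapy (Lag3 lost) and 3 for irradiated libraries (Tigit lost). Of all genes, 208, 855 and 1388 passed there. With only the 2 compared groups 1 passed after radiotherapy (Lgals9 lost), 2 for the combination against radiotherapy (Lag3 lost) and 5 for the combination against control (Entpd1 added). Those fits called 1064, 785 and 3223 of all genes. With the T cell score 5 passed for irradiated libraries (Lag3 added), 1 after radiotherapy and 0 for the combination against control, the combination against radiotherapy and agonist-treated libraries. With the macrophage score 1 passed for irradiated libraries and 0 for the combination against any group and for agonist-treated libraries. With the muscle score 0 passed after radiotherapy, for the combination against radiotherapy, for irradiated and for agonist-treated libraries. The cause of each lost call was not tested. Leaving out 1 library gave 1 to 2 genes after radiotherapy, 2 to 4 for the combination against control, 0 to 3 for it against radiotherapy, 0 to 1 for it against the agonist, 3 to 4 for irradiated libraries, 0 to 3 for agonist-treated libraries, 0 to 2 for the interaction and 0 to 0 with the agonist. Same-numbered libraries did not deviate together (18 correlations from -0.344 to 0.432, 6 of them over 0.1), so the numbers were not taken as pairs. With the replicate block 5 genes passed for the combination against control (Entpd1 added, 0.69, adjusted p = 0.0344), 5 for irradiated libraries (Btla added), 2 for the combination against radiotherapy (Lag3 lost) and 0 for agonist-treated libraries. Signs changed in small, uncalled estimates. With the T cell score, the agonist's changes were -0.049 for Havcr2, -0.082 for Entpd1 and -0.023 for Nectin2, those of the combination against radiotherapy -0.13 for Entpd1 and -0.16 for Nectin2, those of agonist-treated libraries -0.11 and -0.091 for the same genes, and the interactions -0.035 for Lag3, -0.051 for Entpd1 and -0.14 for Nectin2. With the macrophage score, the combination differed from control by -0.027 for Cd160 and -0.26 for Entpd1, from radiotherapy by -0.31 for Entpd1 and -0.092 for Nectin2, and from the agonist by -0.27 for Cd160 and -0.34 for Entpd1. Under the same score irradiated libraries gave -0.32 for Cd160 and -0.14 for Entpd1, agonist-treated libraries -0.11 for Entpd1 and -0.019 for Nectin2, and the interaction -0.10 for Lag3, -0.0090 for Tox, -0.063 for Btla, -0.39 for Entpd1, 0.0087 for Lgals9 and -0.14 for Nectin2. With the muscle score radiotherapy gave -0.016 for Entpd1 and irradiated libraries -0.31 for Cd160. Leaving out 1 library, the change with radiotherapy ranged from -0.62 to 0.082 for Cd160, -0.20 to 0.26 for Entpd1, -0.076 to 0.36 for Lag3 and -0.035 to 0.29 for Havcr2. That with the agonist ranged from -0.073 to 0.0028 for Lgals9, -0.060 to 0.14 for Havcr2 and -0.13 to 0.35 for Btla. The combination against radiotherapy ranged from -0.27 to 0.023 for Lgals9, irradiated libraries from -0.12 to 0.24 for Cd160, and the interaction from -0.048 to 0.13 for Nectin2 and -0.24 to 0.054 for Lgals9. Depth limits Cd160, Tox and Btla most, at no more than 184 counts in any library.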
